A study of Mus musculus with 6 samples.

Results

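The genes described here encode the enzymes with which the exocrine pancreas digests dietary fat: pancreatic lipase (Pnlip), its relatives Pnliprp1 and Pnliprp2, carboxyl ester lipase (Cel), colipase (Clps) and the secreted group IB phospholipase A2 (Pla2g1b). They were chosen by name for their function, with earlier results of these data known, and no level or ratio was used as a filter. All 6 were found and tested among the 12016 genes of the deposited table. RNA was sequenced from the whole pancreas of 6 untreated males at an age of 3 weeks, of which 3 were wild type (C57Bl6/N) and 3 were OCaR1-/-. The strain field of the labels reads C56Bl6/N for both groups, and how the OCaR1 allele was made is not given in the sources used here. OCaR1 is the product of Tmem63a, a link that is background knowledge and not in the labels. Tmem63a had a level of 4.91 FPKM in the knockout against 18.3 FPKM in wild type (log2 ratio -1.90, q = 0.00152 in the authors' deposited table).

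Acinar cells make these proteins, store them in zymogen granules with the proteases and amylase, and release them into the duct when a meal arrives. Pancreatic lipase splits triglycerides to fatty acids and monoglycerides, and needs colipase to hold it at the surface of fat droplets that bile salts cover. Carboxyl ester lipase, activated by bile salts, hydrolyses cholesterol and vitamin esters as well as glycerides, and with Pnliprp2 it serves the digestion of milk fat in suckling animals, before pancreatic lipase takes over around weaning. Pnliprp1 has little or no known lipase activity, and Pla2g1b is secreted as a proenzyme and releases a fatty acid from phospholipids.

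The authors deposited 1 level per genotype for each gene, in FPKM (fragments per kilobase of transcript, scaled to the size of the library), which combines the 3 libraries. Values per mouse were not analysed here, so levels are printed without an SD, and whether the groups overlap could not be seen. FPKM is scaled to transcript length, so levels of different genes can be set side by side. Values are given as knockout then wild type, and ratios as log2 of knockout over wild type. Genes count as called, risen or fallen only at a q-value under 0.05 in the Cuffdiff test of the authors. The numbers of the titles could not be used to compare mice, and in a whole organ fewer cells of a type and less RNA per cell cannot be told apart. Marker lists for the cells of the organ showed acinar genes at high levels, with 5 of 8 markers in the table and none called (median log2 ratio -0.02). Islet (10 of 12), fat cell (7 of 9), macrophage (8 of 9) and endothelial (5 of 7) markers were called higher in the knockout, with medians of 0.65, 1.06, 0.83 and 0.52, and smooth muscle markers lower (5 of 6, median -1.18). Stromal markers had 3 of 7 called higher (median 0.39), duct markers 1 of 7 higher (median 0.10), and of the intestine, stomach and liver markers 3 of 10 were in the table, with Alb called lower (0.746 and 1.39 FPKM). Their part in the results below was not tested.

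Pnlip, Pnliprp1 and Pnliprp2 are neighbours on chromosome 19 and arose from a shared ancestor, so the first question was whether reads of 50 bases could be assigned to each. Their coding sequences agreed at 69.2% of aligned bases between Pnlip and Pnliprp1, 69.3% between Pnlip and Pnliprp2 and 67.0% between Pnliprp1 and Pnliprp2. In GENCODE release M21 (GRCm38), 0 of the 1438 windows of 50 bases in the main Pnlip transcript occurred in a transcript of any other gene, on either strand. The count was also 0 for the other members, of 1570 windows in Pnliprp1, 1523 in Pnliprp2, 2014 in Cel, 562 in Clps and 508 in Pla2g1b. The closest stretch between Pnlip and a paralog is shown to make this visible, in the coding strand from 5′ to 3′, with capitals where the paralog differs from Pnlip.
Pnlip: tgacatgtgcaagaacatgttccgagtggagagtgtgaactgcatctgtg
Pnliprp1: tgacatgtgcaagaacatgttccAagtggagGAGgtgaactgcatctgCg
Pnliprp2: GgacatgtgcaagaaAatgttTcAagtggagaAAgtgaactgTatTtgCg
These are coding bases 312 to 361 of Pnlip, 318 to 367 of Pnliprp1 and 357 to 406 of Pnliprp2, counted from the first base of the start codon. Pnliprp1 differs from Pnlip at 5 of these 50 positions and Pnliprp2 at 9. No window of the Pnlip coding sequence matched a paralog with 2 or fewer mismatches. The transcribed pseudogene 1810018F18Rik, which lies between Pnlip and Pnliprp1, came as close as 5 mismatches to the first 50 coding bases of Pnlip.

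The promoters of the members with the lowest and the highest ratio are shown, Pnlip, which was called, and Cel, which was not. The marked motifs are those of the acinar factors Ptf1a and Nr5a2, whose transcripts are described further on. Any link between the motifs and the ratios was not tested. Each run holds the 250 bases before the RefSeq start (GRCm38.p6), on the gene's own strand. Capitals mark matches to CACCTG, an E box of the kind the PTF1 complex binds, to TTTCCC, the second element of that complex, and to CAAGGTCA, a site of the NR5A2 type, each searched on both strands, with matches that do not overlap.
Pnlip, plus strand, chr19:58670115-58670364: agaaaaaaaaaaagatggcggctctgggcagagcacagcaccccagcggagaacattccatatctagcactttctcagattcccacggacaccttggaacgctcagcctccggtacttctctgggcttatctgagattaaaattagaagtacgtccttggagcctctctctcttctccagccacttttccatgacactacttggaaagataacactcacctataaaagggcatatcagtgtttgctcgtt
Cel, minus strand, chr2:28563404-28563653: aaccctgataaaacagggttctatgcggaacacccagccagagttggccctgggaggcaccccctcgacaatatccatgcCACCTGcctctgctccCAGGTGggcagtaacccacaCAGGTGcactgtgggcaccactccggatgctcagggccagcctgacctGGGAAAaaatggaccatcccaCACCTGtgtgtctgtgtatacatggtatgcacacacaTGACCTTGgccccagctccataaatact
The Cel promoter holds CACCTG 4 times, beginning 170, 154, 134 and 65 bases before the start, TTTCCC once at 86 bases and CAAGGTCA once at 28 bases. The Pnlip window holds none of these exact letter strings. Of the 5 members with a promoter in the reference table, which does not list Clps, 2 hold CACCTG (Cel and Pnliprp2), 1 holds TTTCCC and 1 holds CAAGGTCA (both Cel), and Pnliprp1 and Pla2g1b hold none. Over all 32851 promoter windows in that table, which run from 250 bases before to 50 bases after a start, 20.2% hold CACCTG, 25.2% TTTCCC and 1.56% CAAGGTCA, and 4.86% hold both PTF1 elements. A match is a description of the letters and not a measured binding site.

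The fat-digesting genes were among the most abundant transcripts of the organ, and 1 of the 6, Pnlip, was lower in the knockout. Together they summed to 99886 FPKM (knockout) and 102048 FPKM (wild type), which is 14.7% and 15.6% of the summed FPKM of the 12016 deposited genes. Several digestive enzyme genes, among them Amy2a5, Ctrb1 and Cela2a, had no deposited row. Shares and ranks of abundance given here hold only among the genes that had 1. Of the 6 members, 1 was called lower and none higher in the authors' deposited table, beside 7.54% of the 11478 tested genes called in either direction, 3.35% called lower and 4.20% called higher. Among the 49 tested genes with at least 1000 FPKM in a genotype, a class that holds all 6 members, 24.5% were called, 10.2% lower and 14.3% higher, so a single call among 6 lies near that background. The median log2 ratio of the members was -0.008, beside -0.03 over all tested genes. Without Pnlip the sums were 92224 FPKM and 86300 FPKM.

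**Figure D1:**
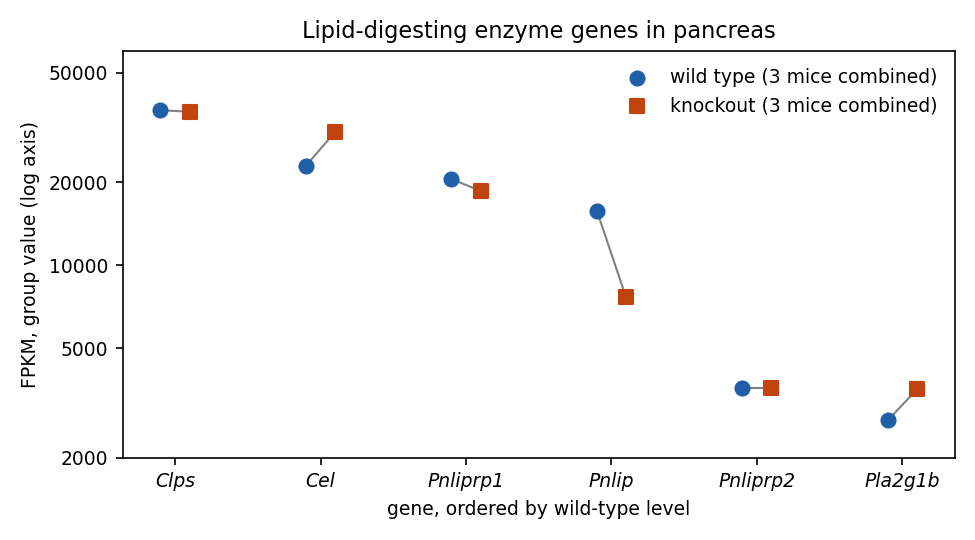
Group FPKM (log axis) of each gene in wild type (circles) and knockout (squares), joined by a line, with 1 value per genotype and therefore no error bars. Pnlip drops from 15748 to 7662 FPKM, Cel and Pla2g1b have the higher value in the knockout, and Clps and Pnliprp2 lie on nearly level lines.

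Pancreatic lipase, the main triglyceride lipase, changed most. Pnlip (ENSMUSG00000046008, protein-coding, GRCm38 chromosome 19, 58670365 to 58681786, plus strand, 13 exons in the main transcript) had 7662 FPKM in knockout pancreas and 15748 FPKM in wild-type pancreas. The knockout level was 48.7% of the wild-type level, a log2 ratio of -1.04 (2.06-fold lower, p = 0.00280 and q = 0.0407 in the authors' deposited table). Pnlip was the 14th most abundant transcript in wild type and the 21st in the knockout. Of the 49 genes at or above 1000 FPKM, the elastase gene Cela1 alone had a lower ratio.

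The paralogs next to it were not called, and their levels in the genotypes lay close together. Pnliprp1 (ENSMUSG00000042179, chromosome 19, 58728887 to 58744169, plus strand) had 18598 and 20548 FPKM, a log2 ratio of -0.14 (q = 0.834 in the authors' deposited table). Pnliprp2 (ENSMUSG00000025091, chromosome 19, 58759723 to 58777533, plus strand) had 3579 FPKM in both, with q = 0.9999, and its 2 deposited levels differ by 0.0400 FPKM. The pseudogene 1810018F18Rik, 17.1 kb beyond the end of Pnlip, had 68.9 and 88.5 FPKM (log2 ratio -0.36, q = 0.416), and the lincRNA 1810007D17Rik, 40.6 kb before its start, 1.36 and 1.76 FPKM (q = 0.511). Beyond Pnliprp2 the nearest gene with a deposited row was 4930506M07Rik, 196 kb away, at 3.83 and 4.48 FPKM (q = 0.261). Pnlip was thus the 1 called gene among these 6 adjoining genes, and the difference between the ratio of Pnlip and those of its neighbours was not tested, since the table holds no libraries.

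The make-up of the lipase family moved accordingly. Pnlip supplied 25.7% of the summed FPKM of Pnlip, Pnliprp1 and Pnliprp2 in the knockout and 39.5% in wild type. Pnliprp1, the relative with little known activity, supplied 62.3% and 51.5%, and Pnliprp2 12.0% and 8.98%. The 3 genes together had 29840 and 39876 FPKM. These shares describe the group values and carry no test.

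Colipase, the cofactor of pancreatic lipase, was not called and had nearly equal levels. Clps (ENSMUSG00000024225, chromosome 17, 28558210 to 28560766, minus strand, 3 exons) was the third most abundant transcript in both genotypes, with 36063 and 36474 FPKM (log2 ratio -0.02, q = 0.984 in the authors' deposited table). The sign of this small ratio depends on the scaling. The level of colipase transcript was 4.71 times that of Pnlip in the knockout and 2.32 times in wild type. Against all 3 members of the lipase family it was 1.21 and 0.915 times their sum. The table lists Mir6969, annotated inside the Clps gene, at 0 in the knockout and at 115 FPKM in wild type, not called (q = 0.320), and gives it the same interval as Clps. On the same chromosome Fkbp5, the glucocorticoid-induced chaperone gene 40.7 kb from Clps, rose from 7.03 to 19.5 FPKM (q = 0.00152), while Srpk1 on the other side had 15.1 and 14.1 FPKM (q = 0.858).

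Carboxyl ester lipase had the highest ratio of the 6 without a call. Cel (ENSMUSG00000026818, chromosome 2, minus strand) had 30444 and 22960 FPKM, a log2 ratio of 0.41 (1.33-fold, p = 0.406 and q = 0.788 in the authors' deposited table). It was the 9th most abundant transcript in wild type and the 4th in the knockout. The deposited interval, 28555795 to 28583751, is shared with Gtf3c5, a transcription factor subunit gene, and with Gm13381, which is annotated as an antisense gene. All 3 genes of that interval had the higher value in the knockout without a call: Gtf3c5 stood at 8.71 and 5.23 FPKM (q = 0.751) and Gm13381 at 47.4 and 15.4 FPKM (q = 0.582). Whether the counting used strand is not given in the sources used here. In GENCODE release M21, 0 of the 2014 windows of the main Cel transcript occurred in a transcript of another gene, on either strand. How the authors divided reads of the shared interval among the 3 genes was not tested.

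The phospholipase gene just missed the threshold in the direction opposite to Pnlip. Pla2g1b (ENSMUSG00000029522, chromosome 5, 115466262 to 115474722, plus strand) had 3540 and 2739 FPKM, a log2 ratio of 0.37 (1.29-fold, p = 0.00400 and q = 0.0527 in the authors' deposited table). Adjusting the deposited p-values over the genes with at least 5 FPKM in a genotype brought it to 0.0462. The nearest genes with a deposited row were Sirt4, a mitochondrial sirtuin gene 3.29 kb from Pla2g1b, and Cox6a1, a respiratory chain subunit gene 117 kb away. They had 6.73 and 5.47 FPKM (q = 0.406) and 130 and 142 FPKM (q = 0.622).

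In wild type the order of the levels was Clps, Cel, Pnliprp1, Pnlip, Pnliprp2 and Pla2g1b. In the knockout the order of the first 4 was the same and Pnliprp2 and Pla2g1b, at 3579 and 3540 FPKM, stood side by side. Which neighbours in these orders differ beyond the spread between mice could not be told from group values.

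**Figure D2:**
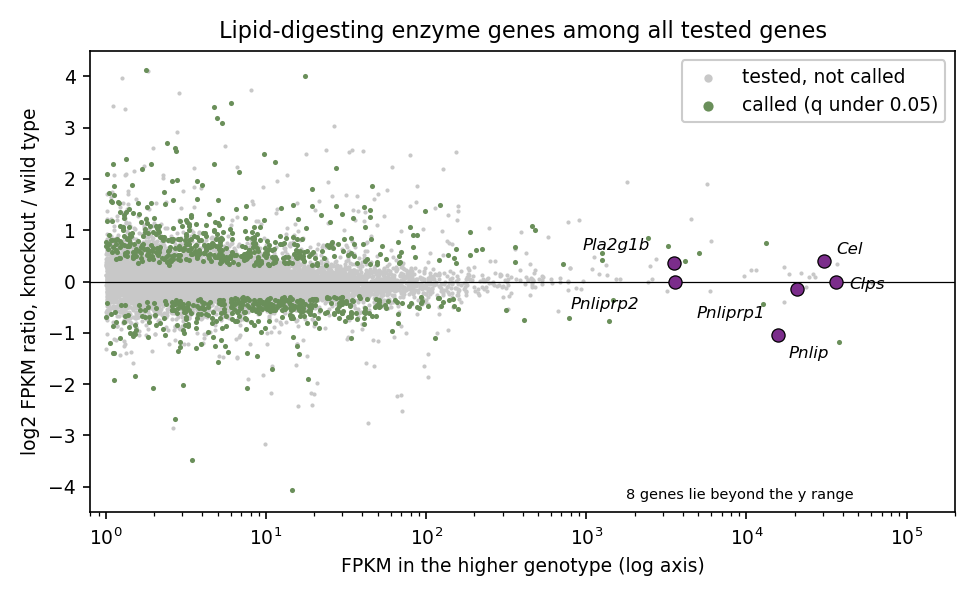
Log2 FPKM ratio of knockout over wild type against the FPKM of the higher genotype (log axis) for the tested genes with a ratio; grey points were not called, green points were called, and purple points are the lipase, colipase and phospholipase genes. The 6 genes sit at the abundant end, Pnlip at -1.04 and the others between -0.14 and 0.41.

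Pnlip and Cela1 stood apart from other called genes in the size of the statistic behind their p-values. The deposited test statistic of Pnlip had a size of 0.498, while the median over 860 called genes was 1.55, and only Cela1 (0.472) and C920009B18Rik (0.309) among them had a smaller one. Across 11436 genes p followed the statistic closely (Spearman rho -0.98, across genes, which are not independent replicates). Of the 950 genes whose statistic lay within 0.05 of that of Pnlip, the median p was 0.213, the lowest was the 0.00280 of Pnlip itself, and 2 were called, Pnlip and Cela1. Cel, with a statistic of 0.311, lay near the median p of 0.433 of the 1397 genes around it. Pla2g1b, with a statistic of 1.21, lay near the median of 0.00320 around it. The call of Pnlip rests on a p-value that is lower than those of genes with a like statistic. Its deposited log2 change divided by its statistic was 2.09, beside a median of 0.481 over all these genes and 1.31 for Cel. On this quotient Pnlip ranked 348th from the highest of the 11436 genes, so many genes had a larger one. How the p-value was drawn from the statistic is not given in the sources used here.

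**Figure D3:**
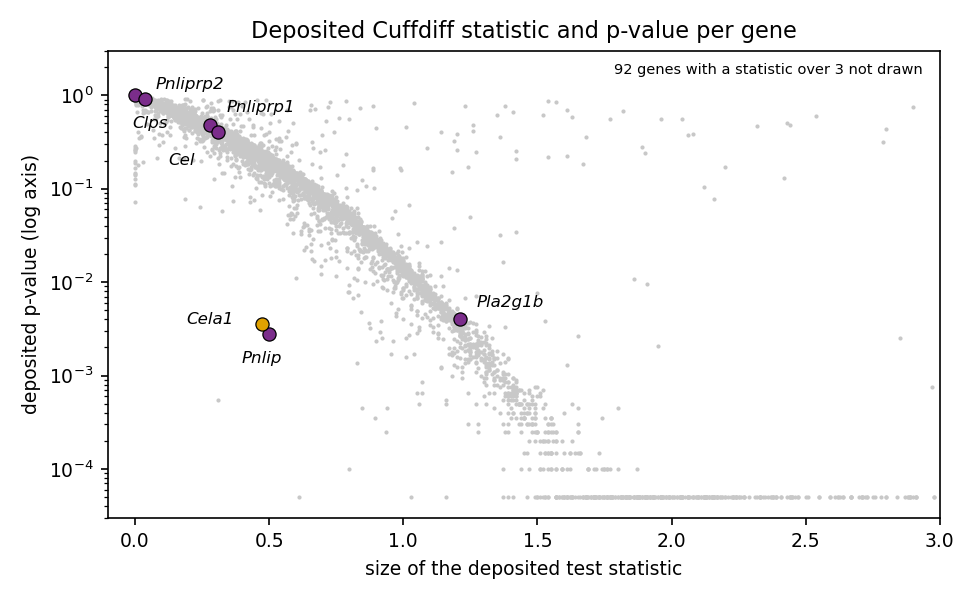
Size of the deposited Cuffdiff statistic and deposited p-value (log axis) of each gene with a statistic up to 3; grey points are tested genes, purple points the 6 fat-digesting genes and the yellow point Cela1. Pnlip, at 0.498 and 0.00280, and Cela1, at 0.472 and 0.00360, lie below the band that most genes form, as does C920009B18Rik further down at 0.309, and the other 5 members lie on it.

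Among the 72 tested genes with at least 500 FPKM in a genotype, those with the ratio nearest to that of Pnlip were Cela1, the stress-induced gene Nupr1 and the metallothionein gene Mt2. Cela1 had 16591 and 37728 FPKM (log2 ratio -1.19, q = 0.0487 in the authors' deposited table), Nupr1 814 and 1391 FPKM (-0.77, q = 0.00152) and Mt2 478 and 783 FPKM (-0.71, q = 0.00152). The distances to Pnlip on the log2 scale were 0.146, 0.267 and 0.327. This likeness is over 2 group values and was not tested.

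Of 25 listed other digestive enzyme genes of the granule, 19 were found. Amy2a5, Amy2b, Cela2a, Ctrb1, Ctrc and Dnase1 had no deposited row. The genes found summed to 238156 and 255519 FPKM. The fat-digesting genes made up 29.5% and 28.5% of both sets together, a share that would be smaller with any level of the missing genes. The share also depends on the list, which leaves out abundant genes such as 2210010C04Rik (17124 and 14098 FPKM). Of 19 tested proteases, carboxypeptidases, amylase and nuclease genes, 4 rose and 1, Cela1, fell in the authors' deposited table (26.3% called, beside 7.54% of all tested genes, median log2 ratio 0.09). The rises were in trypsinogen genes or their close copies, whose reads could be divided between them: Gm5771 (122 and 43.5 FPKM), Gm10334 (21.9 and 8.95 FPKM), Prss3 (458 and 217 FPKM) and Prss1 (78.8 and 37.5 FPKM).

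Acinar transcription factor genes, which drive the digestive enzyme genes, were called lower in 4 of 13 (30.8%, beside 3.35% of all tested genes) and higher in none (median -0.31). These were Ptf1a, the central factor of acinar identity, at 27.2 and 40.9 FPKM, Foxa3 at 10.9 and 15.2 FPKM, Gata4 at 13.0 and 18.9 FPKM and the nuclear receptor gene Nr5a2 at 10.6 and 13.6 FPKM. The more abundant Xbp1 (246 and 304 FPKM, q = 0.105), Rbpjl (159 and 153 FPKM, q = 0.935) and Bhlha15 (64.3 and 68.6 FPKM, q = 0.753) were not called. The 5 listed acinar markers that were found showed no call beside the 4 fallen factors, with log2 ratios between -0.18 and 0.26. Abundant genes outside that marker list were called in both directions. Among them were Sycn, lower at 9338 and 12703 FPKM (q = 0.0256), and Spink3, higher at 4105 and 3127 FPKM (q = 0.00816).

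Other genes of lipid breakdown were far less abundant than the pancreatic enzymes. In 4 lists of such genes, 5 of 30 tested genes (16.7%) were called, beside 7.54% of all tested genes. Of the lipase family outside the 6 genes, 3 of 8 were in the table and 1 rose, the phospholipase gene Pla1a (2.08 and 1.32 FPKM, q = 0.00152 in the authors' deposited table). Lipoprotein lipase (Lpl), which frees fatty acids from blood lipoproteins, had 19.1 and 15.3 FPKM (q = 0.0556) and Liph 1.23 and 1.45 FPKM (q = 0.456). Of 5 genes for lipase maturation and partners of lipoprotein lipase, 1 was called, Gpihbp1, the capillary anchor of that enzyme, which rose from 6.97 to 10.1 FPKM (q = 0.0462). Its inhibitor gene Angptl4 had 0.543 and 1.30 FPKM (q = 0.0782) and the maturation factor gene Lmf1 13.9 and 16.6 FPKM (q = 0.501).

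Intracellular lipases showed 1 rise and 1 fall among 15 tested genes (median 0.14). Mgll, which completes triglyceride breakdown by splitting monoglycerides, fell from 16.0 to 11.6 FPKM (q = 0.00723 in the authors' deposited table). Lipa, the lysosomal acid lipase gene, rose from 1.92 to 2.61 FPKM (q = 0.0251), and the hormone-sensitive lipase gene Lipe had 2.88 and 2.18 FPKM (q = 0.0603). Of 7 tested other phospholipases A2, 1 rose: Pla2g7, the secreted enzyme that inactivates platelet-activating factor, from 0.519 to 1.34 FPKM (q = 0.00152). Pla2g16 had 10.7 and 12.8 FPKM (q = 0.405) and Pla2g15 1.73 and 1.49 FPKM (q = 0.536). In the same knockout group fat cell markers summed to 198 FPKM against 90.4 FPKM in wild type and macrophage markers to 116 against 66.1 FPKM; their part in these calls was not tested.

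Genes that take up fatty acids and rebuild them into glycerides were called in both directions, 3 higher and 2 lower of 22 (22.7%, beside 7.54% of all tested genes, median 0.10). The fatty acid carrier gene Fabp4 rose from 46.7 to 88.0 FPKM, the fatty acid receptor gene Cd36 from 4.74 to 8.41 FPKM and Dgat2, which makes triglyceride, from 1.50 to 2.59 FPKM. Gpam, the first enzyme of glyceride synthesis in mitochondria, fell from 7.25 to 4.83 FPKM, and the transporter gene Slc27a1 from 11.4 to 8.95 FPKM. Fabp4 also belongs to the fat cell markers, which were higher in the knockout (7 of 9 called).

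**Figure D4:**
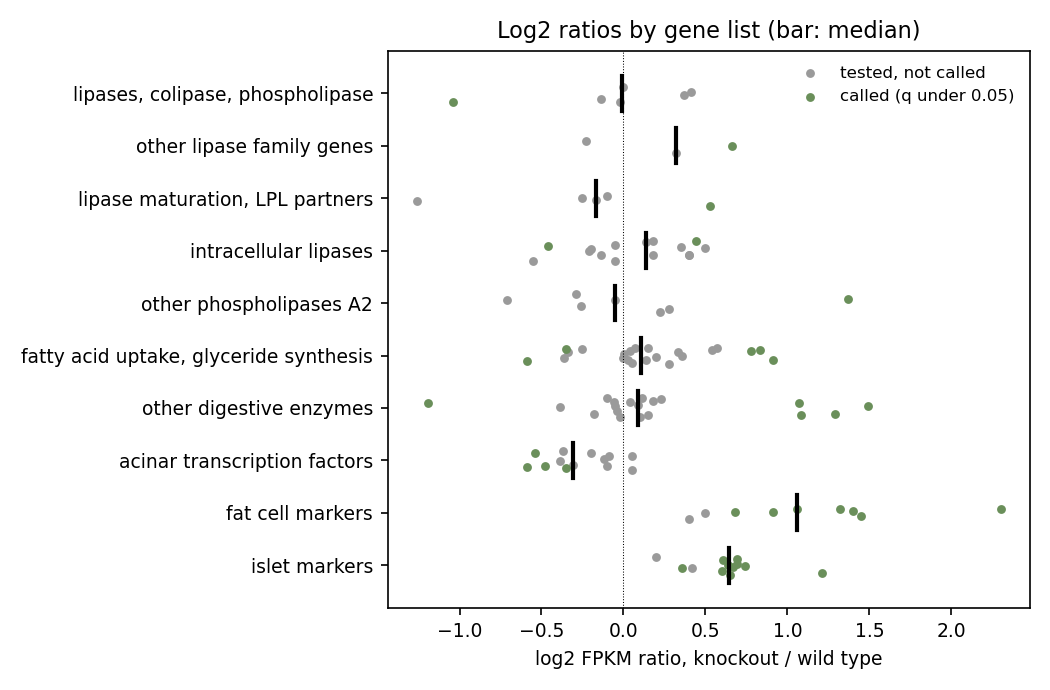
Log2 FPKM ratio of knockout over wild type of each tested gene (points; green where called, grey where not) by gene list, with the list median as a bar; vertical scatter within a list has no meaning. The fat-digesting genes centre near 0 apart from Pnlip, acinar transcription factors have a median of -0.31, and fat cell and islet markers 1.06 and 0.65.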

How the data were processed

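RNA integrity numbers were 8.20 to 9.10, 2.5 µg of poly(A)-selected RNA was used, and single reads were 50 bases long, per the labels' protocols. Cuffdiff, Cufflinks 2.2.1 and STAR 2.5.1b on GRCm38 are named per the submitters' processing notes; the sources used here do not give the annotation release, strand or scaling. The authors deposited 1 FPKM value per genotype with 3 libraries combined, a test statistic (a score), a p-value and a q-value per gene; per the file headers the fold change is wild type over knockout. In 365 of 12016 rows that deposited fold change column holds no usable number, none of them a member. Depth is unknown, so no interval or detection limit is given; 538 rows that the authors did not test enter no count, and every row has at least 1.00006 FPKM in a genotype. Whether mice came from separate litters is not given.

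Log2 ratios were recomputed from FPKM without a pseudocount (values under 0.01 counted as 0), with Python 3.11.15, pandas 2.3.3 and Biopython 1.88, and the adjustment code was tested on simulated data. The call is the authors' Cuffdiff q under 0.05; no test was added. The 6 members, 7 gene lists and 9 marker lists were chosen with earlier results of these data known. Named genes are the members, Tmem63a, up to 3 per list with the smallest p (further called genes are named after their values were seen), the 3 nearest in ratio to a called member, and the nearest rows on each side. The 1000 FPKM class was in the plan; the window of 0.05 around a statistic was chosen after seeing the data. Protein sequences were not used here. Columns of single samples numbered 0.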

Additional observations from a re-analysis of the deposited data

How the results depend on the processing

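No paired analysis was possible because the table holds 1 value per genotype and none per mouse, and leaving out each replicate was not run for the same reason. Pnlip kept its direction under the 4 alternative scalings or centrings run (log2 -1.23 to -0.94), and at its level pseudocounts of 0.5 and 1 FPKM could not change it; its q of 0.0407 does not pass 0.01, which leaves 0 members and 522 of all tested genes called. With q under 0.10, 2 members are called, since Pla2g1b (q = 0.0527) then passes, and adjusted over genes with at least 5 FPKM also 2 (Pla2g1b at 0.0462), with 521 calls in all in place of 866. Scaling to all genes outside the digestive lists shifts every ratio by 0.19 downwards and leaves Cel at 0.22 and Pla2g1b at 0.18. That outside set still holds very abundant genes. Among them are Reg1 (36606 and 28917 FPKM), the immunoglobulin segment Igkj4 (8147 and 735 FPKM) and, in the other direction, Sycn (9338 and 12703 FPKM). Which genes make up the shift was not tested. Pnliprp2 turned to 0.03 centred on the median of tested genes and 0.10 scaled to the other digestive enzymes, and Clps to 0.02 and 0.09. As a share of digestive enzyme FPKM alone the 6 genes hold 29.5% (knockout) and 28.5% (wild type). Both this share and the scaling to the other digestive enzymes rest on the 19 of 25 listed genes that were found. With at least 5 FPKM, calls fell to 0 in the other lipase family genes, 0 in the other phospholipases A2 and 1 in the intracellular lipases, whose median turned to -0.05. The smaller counts follow from fewer genes tested. Of 66 alternative values of the members' ratios and calls, 59 kept the direction and the side of the threshold. Most of the 66 only restate or rescale a ratio and keep the authors' q, so they could not move a call. At these levels the pseudocounts could not turn a direction either. The count is therefore no measure of how firm the calls are. Depth limits cannot be given from FPKM.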
